A study of Mus musculus with 6 samples.

Results

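The mouse Ly6 genes encode small cell surface proteins of the Ly6/uPAR (LU) family. Members were the rows of the deposited expression table whose symbol was Ly6a, Ly6c1, Ly6c2, Ly6d, Ly6e, Ly6g, Ly6i or Ly6k, and all 8 were found among 21684 genes. RNA sequencing had been done on primary murine haematopoietic cells of bone marrow in 2 groups, 3 libraries of cells transduced to overexpress RUNX1-RARA and 3 libraries of cells transduced with an empty vector. RUNX1-RARA is a fusion of the haematopoietic transcription factor RUNX1 with the retinoic acid receptor alpha, and the series concerns such a fusion in a variant of acute promyelocytic leukaemia. Both groups therefore went through transduction. Mouse strain, age, vector backbone, promoter, any sorting of transduced cells, the time after transduction and whether libraries came from separate mice or cultures are not stated in the labels. A p-value here therefore reflects library-to-library spread alone, and that spread may be technical.

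LU proteins share a compact fold of finger-like loops held by disulphide bonds, and most are tethered to the outer face of the plasma membrane by a glycosylphosphatidylinositol (GPI) anchor. In mouse bone marrow several of them serve as surface markers: Ly6g is the antigen used to sort neutrophils, Ly6C (from Ly6c1 and Ly6c2) is high on one class of monocytes, and Ly6a is stem cell antigen 1 (Sca-1). Ly6a, Ly6c and Ly6e are inducible by interferon in mouse cells, and human LY6E is also known as a transcript induced by retinoic acid in acute promyelocytic leukaemia cells.

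Values are FPKM, fragments per kilobase of gene scaled by library size, where the length is that of all annotated exons of a gene together. Levels of different members are therefore also given per main transcript where that changes them. The main transcript is the longest annotated protein-coding transcript of a gene. It was chosen by length, and whether these cells use it was not tested. The number of genes reaching 1 FPKM was 10375 to 10552 per library. Read depth, estimated from the steps between low values, ran from 26.6 to 90.3 M reads, and empty vector replicate 1 was the deepest. Pearson's r on log2(FPKM + 1), taken over genes, which do not count as replicates, was at least 0.996 within groups and at most 0.857 between groups. The labelled cell type was checked with 10 pan-haematopoietic genes, all of them present, whose summed level was 1007 to 1027 FPKM in RUNX1-RARA libraries and 1890 to 1925 FPKM in empty vector libraries. In limma, 8469 of 10901 tested genes (77.7%) had an adjusted p under 0.05, 5012 (46.0%) higher and 3457 (31.7%) lower in RUNX1-RARA libraries, so a call by itself was the common outcome for a gene in this comparison. Among all calls 59.2% were higher. That share was 49.7% under TMM scaling, with 4105 higher and 4158 lower calls, and 74.4% when libraries were set to equal sums without mitochondrial genes, so the majority of higher calls depended on the scaling.

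The members lie together on chromosome 15, within 397.1 kb on GRCm38 (mm10). From one end of the cluster they run Ly6d (74762056 to 74763620, minus strand), Ly6k (74796874 to 74799986, minus), Ly6e (74955051 to 74959905, plus), Ly6i (74979534 to 74983430, minus), Ly6a (74994877 to 74998031, minus), Ly6c1 (75044018 to 75048830, minus), Ly6c2 (75108158 to 75111970, minus) and Ly6g (75155240 to 75159126, plus). All 8 are annotated as protein-coding. The span holds 25 annotated genes, 6 of them pseudogenes, and 14 of the 25 had a row in the table, none of them a pseudogene. Ly6k overlaps Gm17189 on the opposite strand.

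Several members are near copies of each other, which bears on how far their reads can be told apart. The main transcripts of Ly6c1 and Ly6c2 were identical at 97.6% of 822 aligned bases. Of all 50-base windows, 31.7% of those in the Ly6c1 transcript occurred in Ly6c2 transcripts and 32.6% of those in Ly6c2 occurred in Ly6c1. Ly6a shared 8.2% of its windows with other members, Ly6i 3.3% and Ly6g 0.2%, while Ly6e, Ly6d and Ly6k shared none. The sources used here do not give how reads that fit several genes were treated, so the split between Ly6c1 and Ly6c2 is uncertain. With all annotated transcripts of all genes counted, 32.69% of the distinct 50-base windows of Ly6k occurred in genes outside the family, with Gm17189 leading. The share found in any other gene, members included, was 32.77% for Ly6c1, 18.97% for Ly6a, 14.45% for Ly6c2 and 4.76% for Ly6i. It was 0.45% for Ly6g and 0 for Ly6e and Ly6d. For Ly6a most of it lay in other members (17.66%), with Ly6c1 leading (15.03%).

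The stretches upstream of Ly6c1, Ly6c2 and Ly6g are shown because the fusion joins 2 DNA-binding transcription factors and these were the members, 3 of 8, matched by RefSeq promoter windows (GRCm38.p6). Each line gives the 250 bases before the RefSeq start on the gene's strand. RefSeq lists 2 windows for each of the 3, and the one nearest the GENCODE start is shown. The starts of both annotations do not coincide, and the end of the Ly6g window reaches into the gene as GENCODE gives it. In the sequences, capitals mark the letters GAGGAA or their reverse complement TTCCTC, a core recognised by the myeloid factor PU.1. The windows are chr15:75048838-75049087 (minus strand) for Ly6c1, chr15:75111972-75112221 (minus strand) for Ly6c2 and chr15:75155011-75155260 (plus strand) for Ly6g.
Ly6c1: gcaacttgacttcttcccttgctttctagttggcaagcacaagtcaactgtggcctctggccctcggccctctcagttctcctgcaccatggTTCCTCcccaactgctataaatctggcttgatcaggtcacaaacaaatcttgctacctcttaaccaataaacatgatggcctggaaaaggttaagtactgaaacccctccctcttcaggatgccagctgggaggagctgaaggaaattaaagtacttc
Ly6c2: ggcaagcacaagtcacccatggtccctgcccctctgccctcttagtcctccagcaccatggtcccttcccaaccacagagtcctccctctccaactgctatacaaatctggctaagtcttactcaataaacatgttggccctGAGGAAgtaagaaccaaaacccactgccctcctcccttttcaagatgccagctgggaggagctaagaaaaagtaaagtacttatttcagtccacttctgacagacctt
Ly6g: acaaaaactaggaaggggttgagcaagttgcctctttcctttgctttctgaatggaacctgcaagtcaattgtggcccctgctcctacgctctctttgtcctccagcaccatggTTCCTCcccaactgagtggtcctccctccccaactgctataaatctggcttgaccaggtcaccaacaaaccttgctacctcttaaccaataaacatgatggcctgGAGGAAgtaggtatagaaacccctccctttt
The 3 windows resembled each other, with 83.5% identity over 206 aligned bases between Ly6c1 and Ly6g, 80.3% over 173 bases between Ly6c2 and Ly6g and 75.9% over 216 bases between Ly6c1 and Ly6c2.

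Motifs were searched on both strands of these windows, with positions counted back from -1, the last base shown. GAGGAA occurred once in Ly6c1 (-158 to -153), once in Ly6c2 (-108 to -103) and at -136 to -131 and -31 to -26 in Ly6g, and it occurs in 23.25% of the 32851 promoter windows of this length. TGTGGT, a RUNX core, was found in Ly6c2 alone of the 3 (-179 to -174, minus strand of the window), against 14.05% of all windows. AGGTCA, the half-site of retinoic acid receptors, was found in Ly6c1 (-125 to -120) and Ly6g (-81 to -76), against 14.02% of all windows. The C/EBP motif TTGCNNAA was found in Ly6g (-232 to -225) and is in 9.56% of all windows. The interferon-stimulated response element (2.98% of all windows) and the STAT motif TTCNNNGAA (7.02%) had no match in the 3 windows. No match overlapped another. These are letter matches and do not show binding.

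Of the 8 members, 5 passed the filter for testing (at least 1 FPKM in 3 or more libraries). Ly6a, Ly6c2, Ly6g and Ly6i were lower in RUNX1-RARA libraries and Ly6e was higher, and each passed the limma test. Of all tested genes 77.7% passed it, 46.0% higher and 31.7% lower. Ly6g and Ly6i passed the filter through the empty vector libraries alone, so the count of tested members that were lower is no evidence about the family. On the log2(FPKM + 1) scale the 4 lower genes differed at least 2-fold, as did 1060 of all tested genes (9.72%) in that direction. In this fit Ly6e differed by less than 2-fold, while 667 tested genes (6.12%) were at least 2-fold higher. The groups did not overlap for 6 of the 8 members, the 5 tested ones and Ly6c1, against 79.1% of all tested genes. The plot of levels by library shows all 8.

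**Figure D1:**
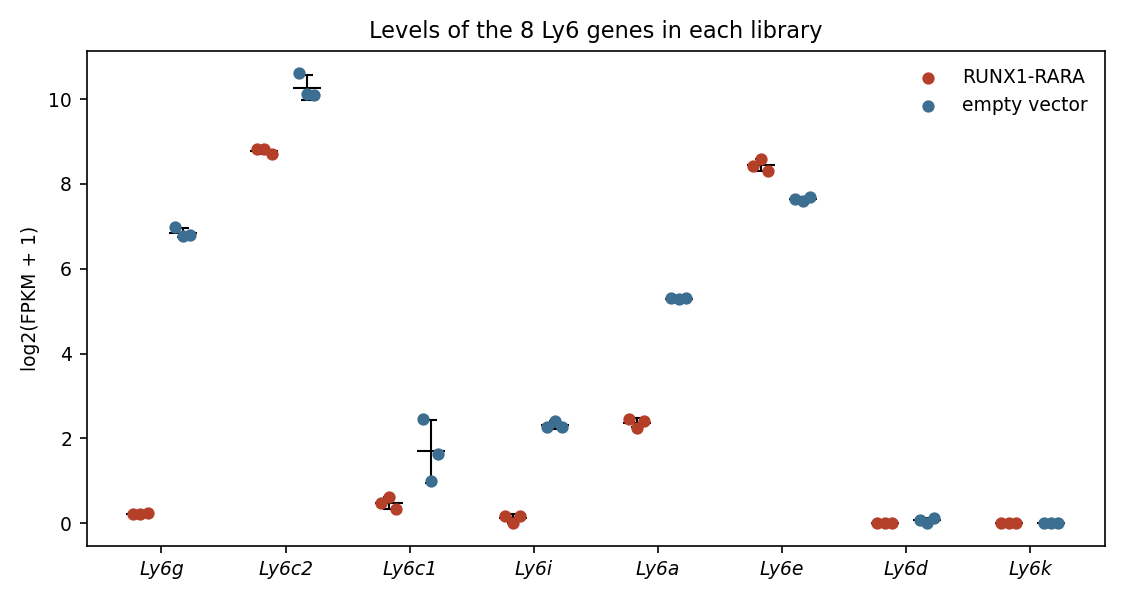
Levels of the 8 Ly6 genes as log2(FPKM + 1) in each of 3 RUNX1-RARA libraries (red) and 3 empty vector libraries (blue); horizontal bars are group means and error bars SD. Ly6g, Ly6c2, Ly6c1, Ly6i and Ly6a lie lower in every RUNX1-RARA library than in any empty vector library and Ly6e lies higher, while Ly6d and Ly6k are at or near 0 throughout.

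Ly6g, the neutrophil antigen, had the largest difference of the family. It stood at 0.159, 0.153 and 0.183 FPKM in RUNX1-RARA libraries and at 125, 108 and 111 FPKM in empty vector libraries. The RUNX1-RARA values were alike and close to 0, and the mean level was 695-fold lower (0.165 ± 0.0159 against 115 ± 8.9 FPKM, SD, n = 3 per group). On the log2 scale the difference was -6.63 (SE 0.0645, limma adjusted p = 4.08e-13), the 9th largest fall among the 10901 tested genes. The RUNX1-RARA levels correspond to an estimated 4, 4 and 7 reads, against 10617, 4138 and 3465 reads in empty vector libraries, so the size of the ratio is imprecise. Ly6g ranked between 387 and 472 among all genes by FPKM in empty vector libraries, whereas in RUNX1-RARA libraries it ranked no higher than 11889. Its upstream window above was the one of the 3 with GAGGAA at 2 places, letters found in 23.25% of all promoter windows. Whether they have a part in the fall was not tested.

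Genes of the neutrophil list fell as Ly6g did, by very unequal amounts. All 16 neutrophil genes of the marker list were lower, beside 31.7% of all tested genes. Of the 16, 5 were tested through the empty vector libraries alone. Their median log2 fold change was -5.36, against 0.11 for all tested genes. Their summed level was 2592 to 3145 FPKM in RUNX1-RARA libraries and 58106 to 65089 FPKM in empty vector libraries. Ltf, the gene of the granule protein lactoferrin, stood at 2.35 ± 0.0685 FPKM in RUNX1-RARA libraries and 1650.3 ± 35.2 FPKM in empty vector libraries. The granule gene Camp had 0.918 ± 0.335 FPKM in RUNX1-RARA libraries, against 298 ± 21.2 FPKM in empty vector libraries. The smallest falls of the list were those of Padi4, Csf3r and Cxcr2, named after their values were seen (log2 fold changes -1.28, -0.88 and -0.69). Csf3r had 41.2 ± 4.39 FPKM in RUNX1-RARA libraries and 77.0 ± 9.47 FPKM in empty vector libraries. Cxcr2 had 49.7 ± 2.56 FPKM in RUNX1-RARA libraries and 80.8 ± 5.66 FPKM in empty vector libraries. The part of neutrophils in the Ly6g result was not tested. In such bulk RNA, fewer cells of a type and less RNA per cell cannot be told apart.

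Ly6c2, which encodes the Ly6C antigen of monocytes, was the most abundant member in both groups. It stood at 449.5, 456 and 417 FPKM in RUNX1-RARA libraries and at 1562, 1113 and 1087 FPKM in empty vector libraries. Empty vector replicate 1 was the highest, and every RUNX1-RARA library lay below every empty vector library. The mean level was 2.85-fold lower (441 ± 20.8 against 1254 ± 267 FPKM, SD, n = 3 per group), or -1.49 on the log2 scale (SE 0.128, limma adjusted p = 1.97e-06), the 626th largest fall. Without empty vector replicate 1 it was 2.50-fold lower. Even so, Ly6c2 remained among the most abundant transcripts, at ranks 93 to 109 of 21684 genes in RUNX1-RARA libraries and ranks 20 to 29 in empty vector libraries.

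The other genes of the monocyte list all fell where tested. Of 14 genes, 12 were tested, 5 of them through the empty vector libraries alone. All 12 were lower, beside 31.7% of all tested genes, with a median log2 fold change of -3.05. Their summed level was 169 to 172 FPKM in RUNX1-RARA libraries and 4822 to 4854 FPKM in empty vector libraries. Lyz2, the lysozyme gene of monocytes and granulocytes, stood at 90.7 ± 3.49 FPKM in RUNX1-RARA libraries and 4142 ± 29.9 FPKM in empty vector libraries. Fn1, encoding fibronectin, was nearly undetected in RUNX1-RARA libraries at 0.005 ± 0.00458 FPKM, against 29.5 ± 2.32 FPKM in empty vector libraries. The part of these cells in the Ly6c2 result was not tested.

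Ly6c1, the near-copy of Ly6c2 that in mice is known from endothelial cells, was scarce. It stood at 0.38, 0.536 and 0.264 FPKM in RUNX1-RARA libraries and at 4.47, 0.978 and 2.12 FPKM in empty vector libraries. The groups did not overlap, but the empty vector libraries were spread widely, with replicate 1 the highest. Only 2 libraries reached 1 FPKM, so the gene was not among those tested. The mean was 6.41-fold lower in RUNX1-RARA libraries (0.393 ± 0.136 against 2.52 ± 1.78 FPKM, SD, n = 3 per group), and 3.94-fold lower without empty vector replicate 1. In a fit without the filter (16289 genes) its log2 fold change was -1.22 with a limma adjusted p of 0.0189.

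Levels of Ly6c1 rested on reads that may be shared with Ly6c2. Ly6c1 made up 0.0633% to 0.117% of the summed level of the pair in RUNX1-RARA libraries and 0.0878% to 0.285% in empty vector libraries. The share of Ly6c2 was 0.10 percentage points higher in RUNX1-RARA libraries (two-sided exact permutation p = 0.2, where the smallest p that 3 against 3 libraries allow is 0.1). It was 0.053 points without empty vector replicate 1 and 0.15 points without empty vector replicate 2. The pair together had 441 ± 21.0 FPKM in RUNX1-RARA libraries and 1257 ± 268 FPKM in empty vector libraries, 2.85-fold lower, as for Ly6c2 alone. The endothelial genes Cdh5 (0.0283 ± 0.00681 against 0.027 ± 0.0211 FPKM) and Kdr (0.0407 ± 0.00231 against 0.182 ± 0.0223 FPKM), named after their values were seen, were near 0 in both RUNX1-RARA and empty vector libraries. In the whole endothelial list 3 of 12 genes were tested, 2 of them higher, beside 46.0% of all tested genes. The summed level was 98.9 to 99.4 FPKM in RUNX1-RARA libraries and 39.2 to 40.7 FPKM in empty vector libraries. Most of it came from Pecam1 (92.5 ± 0.805 against 34.4 ± 0.597 FPKM), which blood cells also express.

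Ly6i, a close relative of Ly6c whose function is little known, was low in empty vector libraries and nearly absent in RUNX1-RARA libraries. It stood at 0.13, 0 and 0.128 FPKM in RUNX1-RARA libraries and at 3.835, 4.34 and 3.78 FPKM in empty vector libraries. The fall on the log2 scale was -2.20 (SE 0.0745, limma adjusted p = 1.33e-09), the 327th largest fall. An estimated 4, 0 and 6 reads lay behind the RUNX1-RARA values. The 46.3-fold lower mean (0.086 ± 0.0745 against 3.98 ± 0.31 FPKM, SD, n = 3 per group) is therefore imprecise, and it was 30.9-fold lower without RUNX1-RARA replicate 2, the library at 0.

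Ly6a, the gene of Sca-1, which marks stem cells and is also found on other activated blood cells in mice, varied little among libraries of a group. It stood at 4.45, 3.76 and 4.35 FPKM in RUNX1-RARA libraries and at 38.5, 37.7 and 38.4 FPKM in empty vector libraries. The 9.14-fold lower mean corresponded to -2.92 on the log2 scale (SE 0.0628, limma adjusted p = 4.16e-11), the 197th largest fall. In rank among all genes, Ly6a held places 7993 to 8404 in RUNX1-RARA libraries and 1638 to 1727 in empty vector libraries. Of 13 stem and early progenitor genes, 6 were tested, with 3 higher and 3 lower, beside 46.0% and 31.7% of all tested genes. The 3 lower ones passed the filter through the empty vector libraries alone. The list summed to 238.8 to 239.1 FPKM in RUNX1-RARA libraries and 91.8 to 94.8 FPKM in empty vector libraries. Most of the sum in RUNX1-RARA libraries came from Cd34, a surface glycoprotein of progenitors. It rose to 155 ± 1.15 FPKM in RUNX1-RARA libraries, against 16.8 ± 0.556 FPKM in empty vector libraries. Hoxa9, a homeobox gene of stem and progenitor cells, was listed at 0 in all RUNX1-RARA libraries and averaged 4.14 ± 0.529 FPKM in empty vector libraries.

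Ly6e, a broadly expressed member known in mice for limiting coronavirus entry into cells, was the only member that rose. It stood at 343, 385 and 317 FPKM in RUNX1-RARA libraries and at 199, 193 and 205 FPKM in empty vector libraries. Every RUNX1-RARA library lay above every empty vector library, and the spread was wider in the RUNX1-RARA group. The mean was 1.75-fold higher (348 ± 34.5 against 199 ± 6.31 FPKM, SD, n = 3 per group), or 0.80 on the log2 scale (SE 0.0771, limma adjusted p = 4.77e-06). It was the 1091st largest rise, in a comparison where 46.0% of tested genes were called higher. Relative to the median tested gene, which lay 0.11 higher, the difference was 0.69.

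Ly6d, a mark of lymphoid progenitors committed to the B lineage, and Ly6k, a gene of testis germ cells needed for sperm function, were not expressed at a measurable level. Ly6d was at 0 in all RUNX1-RARA libraries and at 0.06, 0 and 0.081 FPKM in empty vector libraries, an estimated 4, 0 and 2 reads. Ly6k was at 0 in all 6 libraries. A count of 0 allows up to 3 reads, which for Ly6k is 0.0891 to 0.136 FPKM in RUNX1-RARA libraries and 0.0401 to 0.109 FPKM in empty vector libraries (counting error only). These limits take each read as independent and would be higher if the mates of a pair were counted separately. Genes of the B lineage and plasma cells were low as well. Of 13, 2 were tested, both through the empty vector libraries alone, so that they were lower follows from the filter. The summed level of the list was 1.29 to 2.17 FPKM in RUNX1-RARA libraries and 7.48 to 7.995 FPKM in empty vector libraries.

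The makeup of the family differed between the groups, and its percentages depend on the gene length used. The 8 levels summed to 738.5 to 845 FPKM in RUNX1-RARA libraries and 1448 to 1933 FPKM in empty vector libraries. As a share of all FPKM in a library this was 0.181% to 0.201% in RUNX1-RARA libraries and 0.338% to 0.457% in empty vector libraries. Ly6c2 held 55.6 ± 1.44% of the family sum in RUNX1-RARA libraries and 77.4 ± 3.0% in empty vector libraries, while Ly6e held 43.8 ± 1.51% of it in RUNX1-RARA libraries and 12.6 ± 2.02% in empty vector libraries. Ly6g contributed 0.0209 ± 0.00345% in RUNX1-RARA libraries and 7.18 ± 0.638% in empty vector libraries. Without Ly6c2 the sum was 353 ± 34.3 FPKM in RUNX1-RARA libraries and 359 ± 13.6 FPKM in empty vector libraries, a difference smaller than the SD of either group. Per main transcript the levels without Ly6c2 summed to 584 ± 57.1 in RUNX1-RARA libraries and 502 ± 18.1 in empty vector libraries, so the sums were not near each other on that scale. On that scale Ly6c2 held 71.6 ± 1.2% of the family sum in RUNX1-RARA libraries and 89.1 ± 1.7% in empty vector libraries. Ly6e then held 28.1 ± 1.23% in RUNX1-RARA libraries and 7.22 ± 1.29% in empty vector libraries, and Ly6g held 0.0081 ± 0.0013% in RUNX1-RARA libraries and 2.48 ± 0.266% in empty vector libraries.

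**Figure D2:**
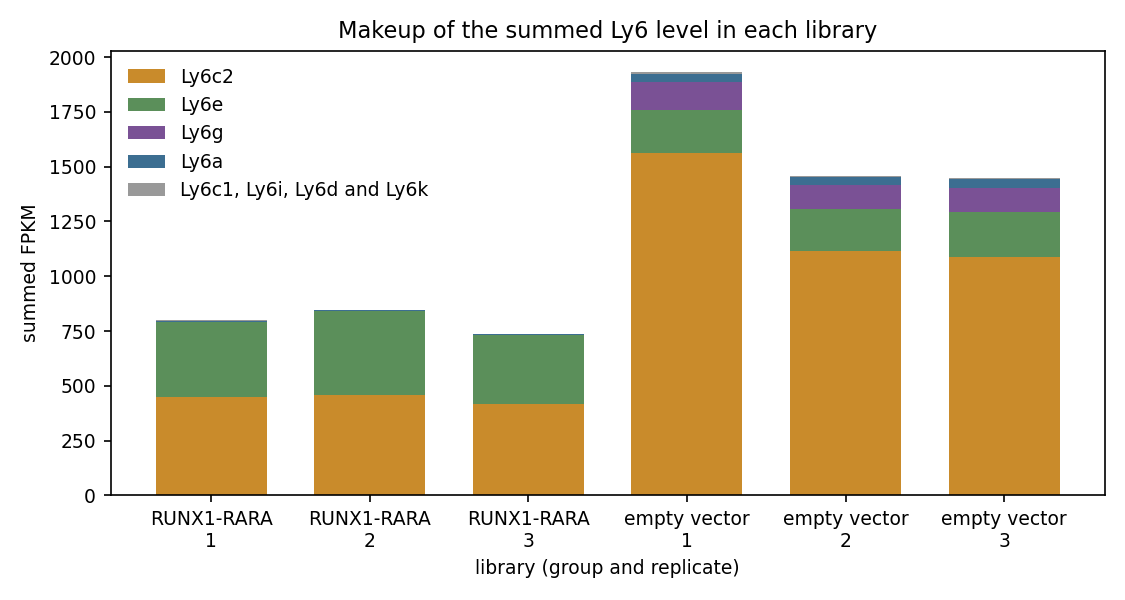
Summed FPKM of the 8 Ly6 genes in each library, stacked by gene, with the 3 RUNX1-RARA libraries on the left and the 3 empty vector libraries on the right. In RUNX1-RARA libraries Ly6c2 and Ly6e make up nearly the whole bar, while empty vector bars are taller, mostly Ly6c2, and include a visible part of Ly6g.

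The order of the members by level differed between the groups. In RUNX1-RARA libraries it ran Ly6c2, Ly6e, Ly6a, Ly6c1, Ly6g and Ly6i, with Ly6d and Ly6k at 0. In empty vector libraries it ran Ly6c2, Ly6e, Ly6g, Ly6a, Ly6i, Ly6c1, Ly6d and Ly6k. Per main transcript, Ly6c1 (5.01 ± 3.54) stood above Ly6i (3.98 ± 0.31) in empty vector libraries, so the order of these 2 depends on gene length. Neighbours whose libraries overlapped were Ly6i with Ly6d and Ly6k in RUNX1-RARA libraries, and Ly6i with Ly6c1 and Ly6d with Ly6k in empty vector libraries. The level of Ly6c2 was 1.27 ± 0.0751 times that of Ly6e in RUNX1-RARA libraries and 6.30 ± 1.35 times in empty vector libraries. These ratios depend on gene length, since the union of annotated exons (2740 bases for Ly6c2, 3784 bases for Ly6e) is 3.33 and 1.66 times the main transcript. Scaled to the main transcripts, the ratio was 2.55 in RUNX1-RARA libraries and 12.7 in empty vector libraries.

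Neighbours in the cluster differed in direction. Ly6e, the one member that rose, lies next to Ly6i, which fell, and the 5 tested members lie within 204.1 kb. In the plot of fold change by position the fall of Ly6g, at the far end, is the largest. Among 31 other genes of the flanking region that were in the table, 18 were tested, 1 of them through the RUNX1-RARA libraries alone. Of the 18, 12 were higher and 4 lower, beside 46.0% and 31.7% of all tested genes. The median log2 fold change of the 18 was 0.49, beside 0.11 for all tested genes. Nrbp2, encoding a pseudokinase, had 3.09 ± 0.288 FPKM in RUNX1-RARA libraries and 0.340 ± 0.0352 FPKM in empty vector libraries. Ptp4a3, encoding a protein phosphatase, had 13.7 ± 1.22 FPKM in RUNX1-RARA libraries, against 4.70 ± 0.22 FPKM in empty vector libraries. Gsdmd, encoding the pore-forming protein gasdermin D, was lower, with 13.2 ± 0.780 FPKM in RUNX1-RARA libraries and 31.6 ± 0.856 FPKM in empty vector libraries.

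**Figure D3:**
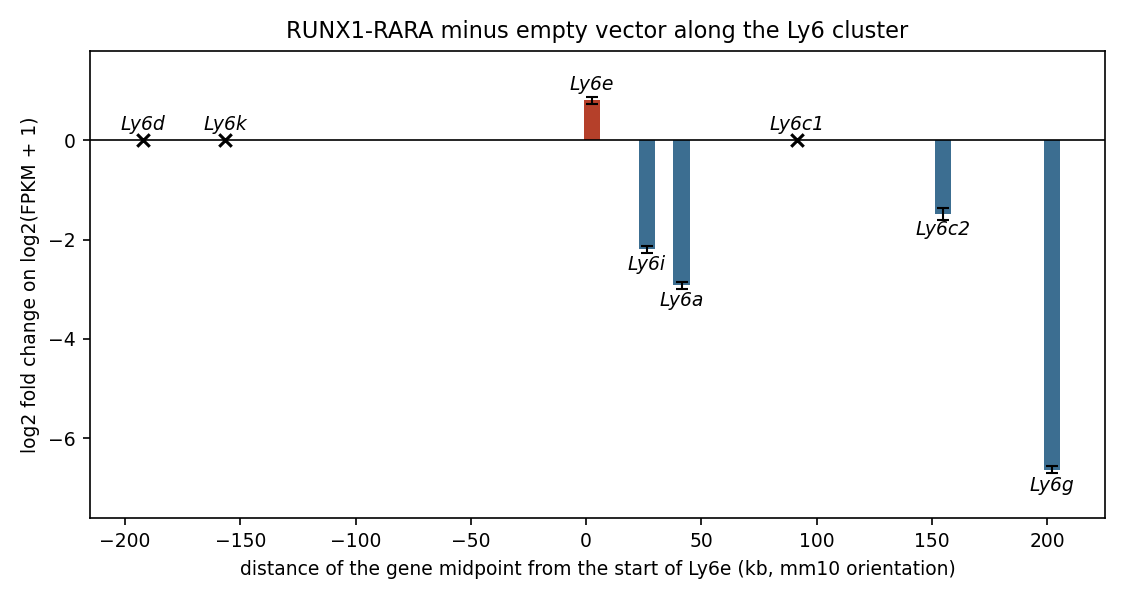
Log2 fold change on log2(FPKM + 1), RUNX1-RARA minus empty vector, of the Ly6 genes against the distance of each gene's midpoint from the start of Ly6e in kb; error bars are SE and crosses at 0 mark the 3 genes that were not tested. Ly6e is the only bar above 0 (0.80) and Ly6g reaches -6.63.

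Other LU-domain genes outside the 8 members were mostly silent. Of 39 in the table, 34 were under 1 FPKM in all libraries and 15 were listed at 0 throughout. The 5 that were tested were 2 higher and 3 lower, beside 46.0% and 31.7% of all tested genes. Of the 5, 2 passed the filter through the empty vector libraries alone and 2 through the RUNX1-RARA libraries alone, which fixed their direction. Cd177, which encodes a GPI-anchored neutrophil antigen, stood at 0.393 ± 0.107 FPKM in RUNX1-RARA libraries and 132 ± 3.82 FPKM in empty vector libraries. Plaur, the urokinase receptor gene, stood at 9.87 ± 1.66 FPKM in RUNX1-RARA libraries and 65.3 ± 4.78 FPKM in empty vector libraries. Cd59a, which encodes a complement inhibitor, was higher, at 8.41 ± 0.606 FPKM in RUNX1-RARA libraries against 0.277 ± 0.0157 FPKM in empty vector libraries.

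Tested genes of the machinery that attaches GPI anchors had log2 fold changes of -0.34 (Pigb) to 0.76 (Gpaa1), beside 0.80 for Ly6e. Of 24 tested genes of anchor assembly and transfer, 11 were higher and 1 was lower, beside 46.0% and 31.7% of all tested genes. The other 12 did not pass the test. The median log2 fold change of the 24 was 0.20, beside 0.11 for all tested genes. With libraries set to equal sums without mitochondrial genes 21 were higher and none lower. Piga, encoding the catalytic subunit of the first step, had 28.7 ± 1.02 FPKM in RUNX1-RARA libraries and 17.8 ± 1.14 FPKM in empty vector libraries. Gpaa1, a subunit of the transamidase that transfers the anchor, had 13.3 ± 1.24 FPKM in RUNX1-RARA libraries and 7.44 ± 0.483 FPKM in empty vector libraries. Dpm2, part of the enzyme that makes the mannose donor, had 17.2 ± 3.08 FPKM in RUNX1-RARA libraries and 11.8 ± 0.420 FPKM in empty vector libraries.

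Other GPI-anchored proteins of blood cells went in both directions. Of 13 tested, 4 were higher and 8 lower, beside 46.0% and 31.7% of all tested genes. In this list 3 LU-domain genes are counted again. The filter was passed through the empty vector libraries alone by 2 of the 13 and through the RUNX1-RARA libraries alone by 1. Cd24a, encoding a heavily glycosylated mucin-like antigen, stood at 5.86 ± 0.762 FPKM in RUNX1-RARA libraries and 271 ± 9.50 FPKM in empty vector libraries. Bst1, an ectoenzyme gene, stood at 0.183 ± 0.0503 FPKM in RUNX1-RARA libraries and 32.9 ± 2.10 FPKM in empty vector libraries. Cd48, which encodes a ligand of the receptor 2B4, had the largest rise of this list on the log2(FPKM + 1) scale and was named after its values were seen, with 438 ± 19.0 FPKM in RUNX1-RARA libraries and 43.0 ± 3.65 FPKM in empty vector libraries.

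Interferon-inducible genes were examined because several Ly6 genes respond to interferon in mice. Of 22 tested genes, 20 were lower and 2 higher, beside 31.7% and 46.0% of all tested genes. Their median log2 fold change was -0.91, and 9 of the 22 were tested through the empty vector libraries alone. Zbp1, a sensor of nucleic acids, stood at 0.488 ± 0.153 FPKM in RUNX1-RARA libraries and 11.2 ± 0.979 FPKM in empty vector libraries. Oas2, an antiviral synthetase gene, stood at 0.286 ± 0.0267 FPKM in RUNX1-RARA libraries and 6.30 ± 0.0521 FPKM in empty vector libraries. Ifi27l2a had 1.35 ± 0.934 FPKM in RUNX1-RARA libraries and 10.5 ± 2.80 FPKM in empty vector libraries. The genes that were higher, named after their values were seen, were Bst2, an antiviral tether with 29.6 ± 4.66 FPKM in RUNX1-RARA libraries and 14.2 ± 0.933 FPKM in empty vector libraries, and Stat2, a signal transducer, with 19.1 ± 1.07 FPKM in RUNX1-RARA libraries and 16.7 ± 0.822 FPKM in empty vector libraries. The list summed to 88.2 to 96.1 FPKM in RUNX1-RARA libraries and 161 to 173 FPKM in empty vector libraries. The number of higher genes was 1 in place of 2 under TMM scaling, without RUNX1-RARA replicate 3 and without empty vector replicate 2. The part of interferon signalling in the Ly6 differences was not tested.

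**Figure D4:**
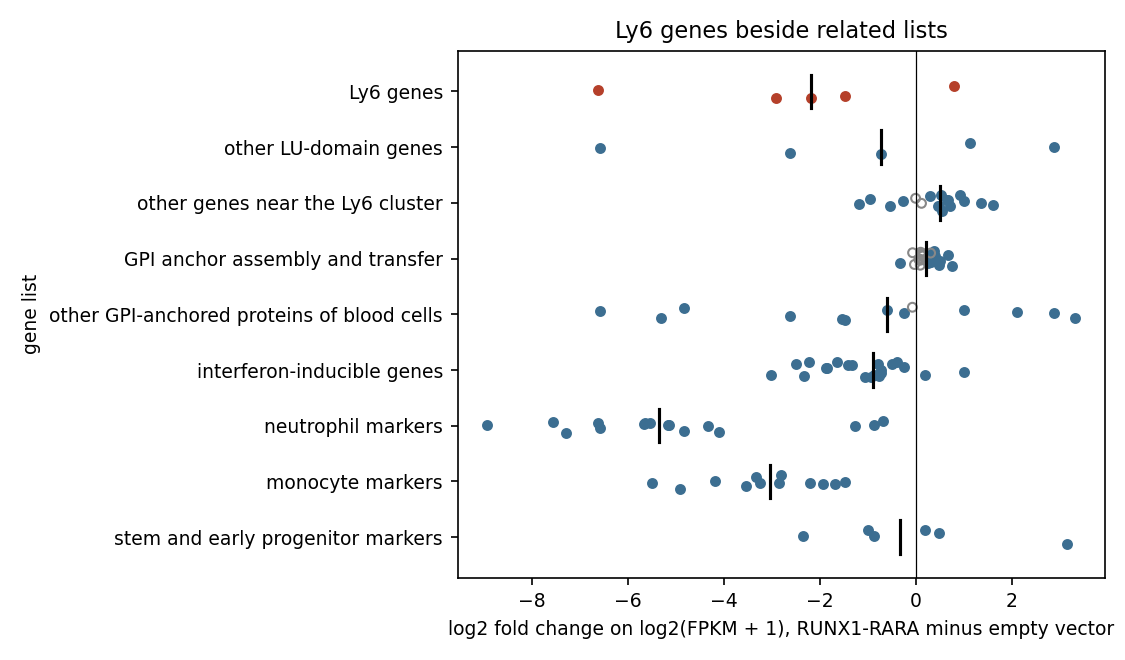
Log2 fold change on log2(FPKM + 1), RUNX1-RARA minus empty vector, of the tested genes of the Ly6 family (red) and of 8 related gene lists (blue); filled points passed a limma adjusted p of 0.05, open points did not, and black bars are medians. Neutrophil and monocyte markers lie wholly below 0, GPI anchor genes reach from -0.34 to 0.76, and the Ly6 genes reach from -6.63 to 0.80.

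Genes with the most similar profile to each tested member were found by the Euclidean distance between log2(FPKM + 1) values over the 6 libraries, which is a description of likeness dominated by the 2 group levels. Closest to Ly6g were Saa3 (0.079 ± 0.0454 against 121 ± 3.37 FPKM in RUNX1-RARA and empty vector libraries, distance 0.295), an acute phase gene, Cd177 (distance 0.637) and Ceacam10 (distance 0.93). Closest to Ly6c2 were Arhgdib (521 ± 30.4 against 1332 ± 158 FPKM, distance 0.639), Lilrb4a (distance 0.816) and the ferritin light chain gene Ftl1 (distance 0.937). Among those closest to Ly6e were the ribosomal protein genes Rps29 (351 ± 81.2 against 226 ± 13.9 FPKM, distance 0.548) and Rpl9 (distance 0.556). Ly6a was nearest to Cdh1 (3.55 ± 0.242 against 39.4 ± 0.208 FPKM, distance 0.357), which encodes E-cadherin, then Mtus1 (distance 0.370) and the beta-glucan receptor gene Clec7a (distance 0.375). Ly6i was nearest to the transcription factor gene Klf4 (0.0613 ± 0.0428 against 3.92 ± 0.105 FPKM, distance 0.248), then Gpr35 (distance 0.266) and Ifi209 (distance 0.268).

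Markers of other cell types were measured beside these results. The T and NK cell list had 1 tested gene of 10, Nkg7, which was higher, at 71.2 ± 11.0 FPKM in RUNX1-RARA libraries against 26.3 ± 1.60 FPKM in empty vector libraries, while the genes of the T-cell receptor complex were under 1 FPKM on average and differed in direction. Cd3e was listed at 0 in RUNX1-RARA libraries and had 0.0127 ± 0.0219 FPKM in empty vector libraries. Cd3d had 0.045 ± 0.0392 FPKM in RUNX1-RARA libraries and 0.440 ± 0.0546 FPKM in empty vector libraries. Cd3g went the other way, with 1.25, 0.984 and 0.673 FPKM in RUNX1-RARA libraries and 0, 0.096 and 0 FPKM in empty vector libraries, and was not tested. The NK cell gene Klrb1c was at 0.0547 ± 0.0376 FPKM in RUNX1-RARA libraries and 0.00567 ± 0.00981 FPKM in empty vector libraries. This list summed to 59.4 to 79.2 FPKM in RUNX1-RARA libraries and 26.0 to 28.8 FPKM in empty vector libraries. Of 9 plasmacytoid dendritic cell genes 3 were tested, 2 higher and 1 lower, beside 46.0% and 31.7% of all tested genes. Their list had summed levels of 36.5 to 44.6 FPKM in RUNX1-RARA libraries and 20.6 to 23.7 FPKM in empty vector libraries. Siglech was at 0 in RUNX1-RARA libraries and at 0.00433 ± 0.00751 FPKM in empty vector libraries. Of 10 stromal genes only Pdgfrb was tested, through the RUNX1-RARA libraries alone. It was higher, at 18.7 ± 1.59 FPKM in RUNX1-RARA libraries against 0.603 ± 0.0551 FPKM in empty vector libraries. Col1a1 was at 0 in RUNX1-RARA libraries and at 0.626 ± 0.0736 FPKM in empty vector libraries. The Cd3 genes, Klrb1c, Siglech and Col1a1 were named after their values were seen. Of the 10 pan-haematopoietic genes 9 were lower, beside 31.7% of all tested genes, and 1 did not pass the test. Itgb2, the integrin beta-2 chain gene, had 17.6 ± 0.222 FPKM in RUNX1-RARA libraries and 252 ± 8.58 FPKM in empty vector libraries.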

How the data were processed

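RNA of 3 RUNX1-RARA and 3 empty vector libraries was sequenced. The values are FPKM as the authors deposited them, per the file headers. The submitters' processing notes list HISAT2 2.2.1, featureCounts 2.0.1, fastp 0.22.0 and DESeq2 1.32.0 as tools, and mm10 and hg38 as builds, with no role for any of them. Strandedness, annotation release and the handling of multi-mapping reads are not stated in the labels. FPKM depend on the sum of each library and hold no counts.

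Genes reaching 1 FPKM in at least 3 of 6 libraries (10901 of 21684) were fitted with limma 3.58.1 in R 4.3.3 on log2(FPKM + 1), with a group term, trended moderation and Benjamini-Hochberg adjustment over all tested genes, called under 0.05. Log2 fold changes subtract empty vector from RUNX1-RARA on that scale and understate the change of low genes, while a plain fold is a ratio of mean levels. The limma fit was tested on simulated data. Depth was estimated from FPKM steps and exon lengths of GENCODE M21 on GRCm38: between 82.5% and 91.5% of low values lay within 0.1 of a whole read, against 20.0% by chance, and between 63.2% and 71.1% of the read numbers were even, so mates may have been counted separately and the depths are firm only relative to each other. For this reason no count test was used.

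The members, gene lists and tests were chosen with earlier results of these data known. All 8 members are named; from each list up to 3 called genes with the largest change are named, and for each tested member the 3 most similar genes, 1 of which is not reported here. Tsnare1, Pigy, Trac, Trbc1 and Trbc2 of the lists were not matched and were not analysed here. The symbol Pycr3 was not matched either, but that gene was analysed under its older symbol Pycrl. Alternatives covered pseudocounts of 0.1 and 0.01, no filter, a mean of at least 5 FPKM, 5 other scalings (TMM, upper quartile, quantile, equal sums with and without mitochondrial genes), moderation without a trend, a replicate block and leaving out each library, 17 settings in all. After the data were seen, levels per main transcript and the sum of Ly6c1 and Ly6c2 were added. Sequence likeness used Biopython 1.88.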

Additional observations from a re-analysis of the deposited data

How the results depend on the processing

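All 84 alternative values of Ly6a, Ly6c2, Ly6e, Ly6g and Ly6i over the 17 settings kept their direction and stayed under a limma adjusted p of 0.05, the largest being 1.62e-04; Ly6i could not be tested with a mean of at least 5 FPKM. Leaving out 1 library gave log2 fold changes of -2.96 to -2.86 for Ly6a, -1.58 to -1.32 for Ly6c2, 0.73 to 0.87 for Ly6e, -6.67 to -6.57 for Ly6g and -2.23 to -2.14 for Ly6i; under the other settings Ly6g reached -9.36 and Ly6i -6.11, both with a pseudocount of 0.01. For Ly6e the values ran from 0.68 under TMM scaling to 1.065, which is above 2-fold, with equal sums without mitochondrial genes. The untested difference of Ly6c1 (-1.22) was -2.21 with a pseudocount of 0.1 and -2.45 with 0.01. That of Ly6d (-0.07) was -0.51, -1.998 and, with equal sums, -0.15, which rests on 2 libraries with few reads. Ly6c2 over Ly6e was 2.55 in RUNX1-RARA and 12.7 in empty vector libraries per main transcript. Among the lists, no filter gave 6 lower LU-domain genes and 2 lower GPI anchor genes. A mean of at least 5 FPKM, which leaves fewer genes, gave 0 higher LU-domain genes, 2 lower flanking genes and 6 lower interferon-inducible genes. Equal sums without mitochondrial genes gave 21 higher and 0 lower GPI anchor genes. TMM scaling gave 1 higher interferon-inducible gene, and leaving out 1 library 1 to 2. TMM scaling moved the median of all tested genes by about its own size, from 0.11 to 0.0013, and gave 4105 higher and 4158 lower calls; equal sums without mitochondrial genes moved it to 0.35, with 6893 higher and 2370 lower. The causes were not tested. Replicate numbers did not pair the libraries (correlations of deviations 0.022, -0.37 and -0.065), and with a replicate block the 5 members kept their calls (Ly6c2 adjusted p = 1.01e-07), with 4856 genes higher and 3374 lower. Depth limits Ly6d, Ly6k and the RUNX1-RARA levels of Ly6g and Ly6i, which rest on few reads.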

Other observations

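The log2 fold change of Ly6c2 stood at the small end of those of the monocyte list, with 3 receptor genes named here after their values were seen. Ccr2, the chemokine receptor that brings monocytes out of the marrow, had 31.6 ± 2.33 FPKM in RUNX1-RARA libraries and 123 ± 5.48 FPKM in empty vector libraries (SD, n = 3 per group, log2 fold change -1.93). Csf1r, the receptor of the monocyte growth factor, had 3.45 ± 0.495 FPKM in RUNX1-RARA libraries and 30.2 ± 0.304 FPKM in empty vector libraries (log2 fold change -2.82), beside -1.49 for Ly6c2. Cd14, the receptor of bacterial lipopolysaccharide, had a log2 fold change of -1.47, close to that of Ly6c2, with 6.41 ± 0.328 FPKM in RUNX1-RARA libraries and 19.6 ± 1.66 FPKM in empty vector libraries. The difference between these genes was not tested.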
